A study of Equus caballus with 11 samples.

Results

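CpG-dense stretches of DNA are the part of the genome in which methylation usually takes one of the extremes, and the windows described here are those that did not hold a single extreme in every library. They were 456 windows of 1000 bp on chromosomes 1 to 31 with at least 30 distinct CpGs listed over the libraries and at least 50 summed read counts in every library. Each was neither under 20% methylated in all libraries nor at 70% or more in all of them. They made up 23.8% of the 1919 dense windows with that depth, next to 753 windows under 20% throughout and 710 windows at 70% or more throughout. At any depth there were 15390 dense windows, among 444129 windows with a listed CpG. The members were chosen by these measured levels in the same 11 libraries, so their partial or varying levels are a description and not a finding.

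The data came from reduced representation bisulfite sequencing (RRBS) of heart, lung and liver, a method that reads fragments cut at CCGG sites and in which an unmethylated cytosine is read as T while a methylated one is still read as C. The donors were healthy Polish cold-blooded stallions, 1 to 2 years old, sampled at slaughter from the left ventricle of the heart, the caudal lobe of the right lung and the right lobe of the liver. Heart and lung were represented by horses 1, 2, 3 and 4, and liver by horses 1, 2 and 4, which gave 11 libraries. No treatment or engineered genotype separated the groups, and each library held all cell types of its organ.

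Methylation of cytosine in CpG is copied at cell division and is set up differently in different cell types. CpG-dense stretches, often called CpG islands, lie at many promoters and are mostly kept free of methylation, while dense repeats and many islands inside genes are methylated. A level between the extremes in bulk tissue can come from a mix of cells, from alleles that differ, as at imprinted genes, or from CpGs that differ from each other within the window, and cells and alleles cannot be told apart in these files. The coordinates below are those of EquCab3.0, and no gene is named because no annotation of that build was used here.

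Read depth set the precision of each level. The libraries held 3255257 summed read counts in liver of horse 2 and 25109840 in liver of horse 1, with the other libraries between them. At the member windows the median was 87.5 counts in liver of horse 2 and 469.5 in liver of horse 1. A read that covers several CpGs was counted at each, and intervals are not given for this reason. The choice of windows depended on the shallowest library, since 807 of 3386 dense windows met the rule without liver of horse 2, a share of 23.8%, and 431 of these were among the 456. Pairs of libraries of the same tissue were compared window by window to find duplicates. Over 15 pairs their chi-square, divided by its degrees of freedom, had a mean of 2.99 to 8.02 and a median of 0.974 to 1.28. The highest mean was that of heart of horses 1 and 2. Counting a read at several CpGs raises this measure, so it shows only that no pair held the same values. The tissue labels were not checked against marker genes, since no gene was assigned.

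Most member windows crossed the upper threshold. In 239 windows (52.4%) some libraries were at 70% or more and the others below it, with no library under 20%. In 152 windows (33.3%) the libraries lay on both sides of 20% and none reached 70%. Another 58 windows (12.7%) lay between the thresholds in every library, and 7 windows (1.54%) had libraries under 20% and libraries at 70% or more. The mean level over libraries had a median of 72.4% in the first kind, 17.4% in the second and 45.4% in the windows that were partial throughout.

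**Figure D1:**
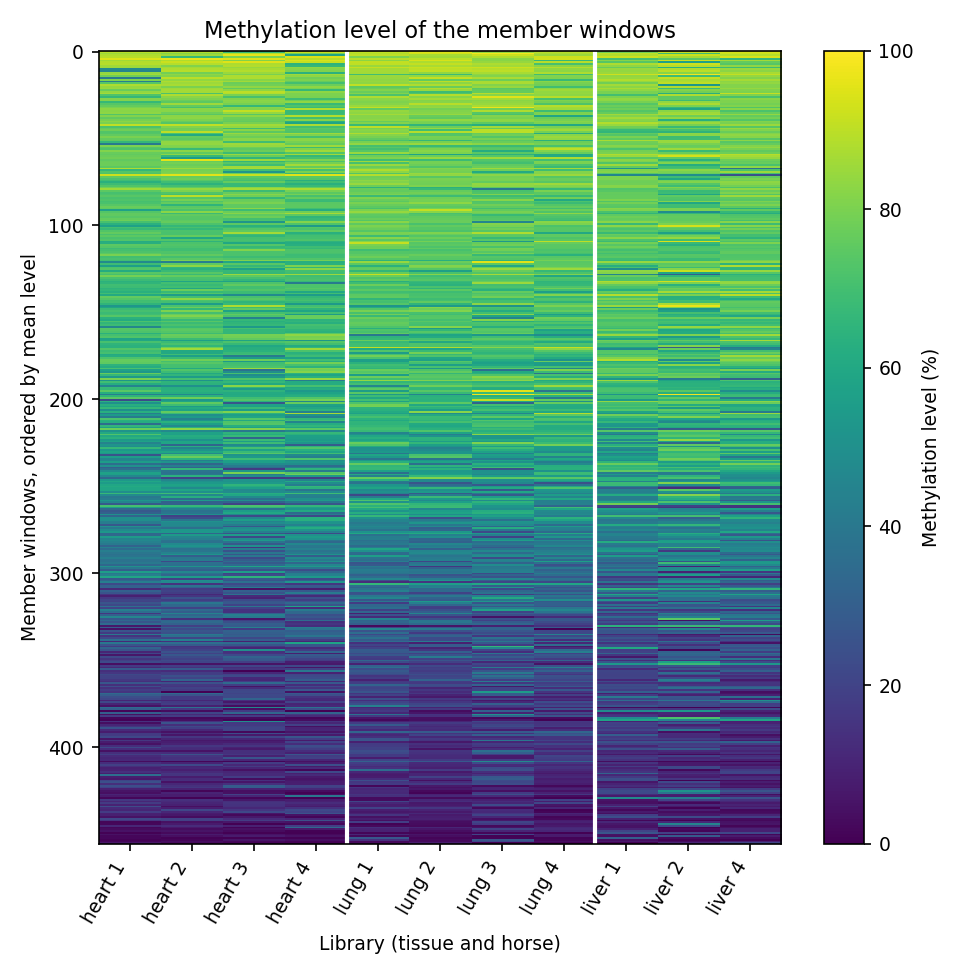
Methylation level (color, 0 to 100%) of the 456 member windows (vertical axis, ordered by mean level) in the 11 libraries (horizontal axis, tissue and horse). Levels ran through all grades from near 0 to near 100%, and the median per library was between 53.1 and 60.5%.

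Heart libraries had the lowest median levels. Over the 456 windows the median was 53.1, 55.1, 55.9 and 57.1% in heart, 60.1, 57.97, 59.1 and 59.3% in lung and 58.9, 59.7 and 60.5% in liver, so that heart did not overlap with the other tissues. These medians are over windows that the rule chose by their levels, and the difference was not tested. In each library 69 to 107 of the windows were under 20%, 119 to 169 were at 70% or more and 189 to 244 lay between. By tissue means, 269 windows were in the same band in all tissues (123 of them between 20% and 70%, 95 at 70% or more and 51 under 20%) and 187 windows changed band. Windows with a tissue mean under 20% or at 70% or more in all tissues entered because some of their libraries lay across the threshold.

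The range over the 11 libraries was a median of 25.02 points, with quartiles of 18.7 and 37.0 points. The narrowest range was 2.47 points and the widest 71.1 points. Only 19 windows varied by less than 10 points and 38 varied by 50 points or more. The windows under 20% throughout had a median range of 3.18 points and those at 70% or more throughout 8.24 points, a contrast that the rule itself favours. Counting error alone widens a range where reads are few. The 285 members whose shallowest library had 50 to 99 counts had a median range of 27.3 points, and the 171 with 100 or more had 22.4 points.

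Windows near the thresholds differed little from their neighbours outside. Just inside the lower threshold, the windows on chromosome 3 from 16608001 to 16609000 and on chromosome 14 from 39770001 to 39771000 both had 20% in their highest library. Just outside it, the windows on chromosome 3 from 4112001 to 4113000 and on chromosome 9 from 46594001 to 46595000 had 19.7% and 19.6% in theirs. At the upper threshold the lowest library had 69.95% on chromosome 31 from 1 to 1000 and 69.9% on chromosome 26 from 10001 to 11000, both members. The windows on chromosome 26 from 81001 to 82000 and on chromosome 12 from 34731001 to 34732000, with 70.1% each, were not members.

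Member windows had slightly fewer CpGs than the other dense windows. The median was 39 listed CpGs (quartiles 33 and 49, at most 103), against 43 in the windows under 20% and 46 in those at 70% or more. Within 1 Mb of the first or last listed position of a chromosome lay 63 members (13.8%), 29 of the unmethylated windows (3.85%) and 197 of the methylated ones (27.7%). A directly adjacent window of the same class was found for 53 members (11.6%), 64 (8.499%) of the unmethylated and 335 (47.2%) of the methylated windows. Most members therefore stood alone, 403 of them with no adjacent member.

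By its median over all members, the sparser DNA next to them was largely methylated, unlike that next to the unmethylated dense windows. Flanks were not split by kind of member, so the level beside the members around 20% alone was not shown. Flanking windows were those 1 kb away with fewer than 30 CpGs and at least 20 counts in the library, and the rule did not use them. Their median level per library was 64.7 to 71.3% beside members, 2.94 to 5.56% beside unmethylated windows and 84.6 to 88.0% beside methylated ones. Beside members it was on average 63.8 points above that beside unmethylated windows, with 61.7 to 67.3 points in single libraries and the same sign in 11 of 11. It was below that beside methylated windows in all libraries, by a mean difference of -19.6 points (-21.6 to -16.2). For each contrast the exact 2-sided sign-flip permutation test over 11 libraries gave p = 0.000977, the smallest that 2048 arrangements can give. It was the same after Benjamini-Hochberg adjustment over 4 tests (these and 2 of reads per CpG). All libraries read the same genome, so this p measures agreement between libraries only and not the spread between windows. Libraries of 1 horse are not independent, and over the means of the 4 horses, which all had the same sign, the exact p of each flank contrast was 0.125, the smallest that 16 arrangements can give.

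**Figure D2:**
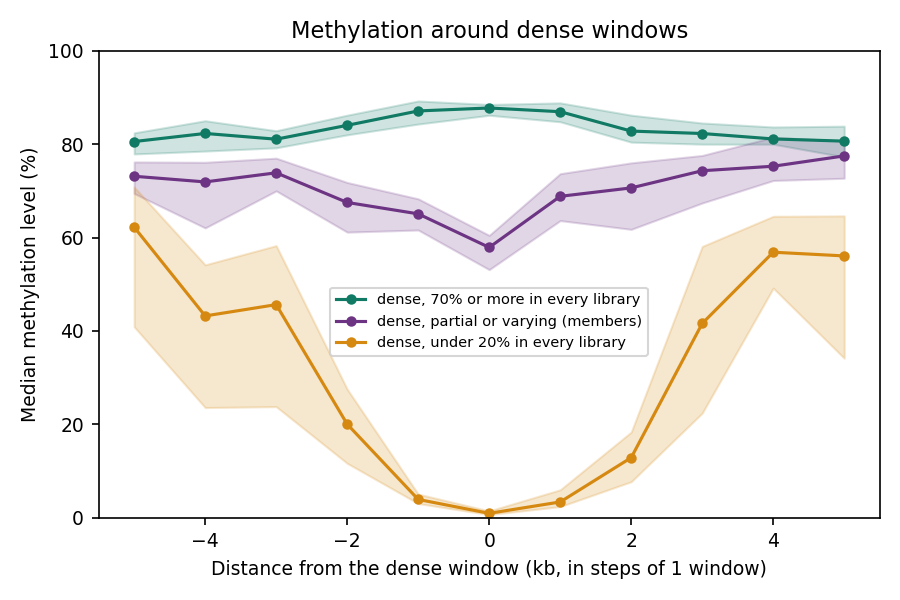
Median methylation level (vertical axis, %) of the dense windows (distance 0) and of sparser windows up to 5 kb away (horizontal axis, in kb). Points show the mean over libraries of each library's median, and bands run from the lowest to the highest library. Around members the points lay at 57.9% at distance 0, a level the rule used, and at 77.5% at 5 kb on the right. Windows 1 kb from an unmethylated dense window were still at 3.40 to 3.94%.

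Farther from the members the level rose and then stayed high. Values are means over libraries of each library's median. The level was 57.9% in the members themselves, 65.1 and 68.8% at 1 kb on the left and right, and 73.1 and 77.5% at 5 kb. Around unmethylated windows it was 3.94 and 3.40% at 1 kb and reached 62.2 and 56.1% at 5 kb. Around methylated windows it went from 87.1 and 87.0% at 1 kb to 80.6% on both sides at 5 kb. The members' own level was used by the rule, so its place below the flanks is in part fixed by that choice. At each distance on a side, 191 to 253 flanking windows of members had a listed CpG and fewer than 30 CpGs. Each library's median used only those with at least 20 counts in that library. Over both sides at 1 kb these were 115 windows in liver of horse 2 and 407 in liver of horse 1. The surroundings of the 3 classes were nearer to each other at 5 kb than at 1 kb.

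Reads per listed CpG also differed between the classes. Reads and CpG numbers were part of the rule for all classes of dense windows. These values are therefore a description, and the sign-flip tests run on them are not read as a result. The difference in median reads per listed CpG was 1.63 on average over libraries (higher in 11 of 11) against unmethylated windows and -4.08 (lower in 11 of 11) against methylated ones. With means in place of medians the second difference was -0.610 reads, and 7 of 11 libraries were higher in members. At 5 times the median depth of dense windows or more in every library were 19 members (4.17%), 4 unmethylated windows (0.531%) and 17 methylated ones (2.39%).

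By their mean over the 11 libraries, CpGs within a member were more often intermediate than split into low and high ones. The composition could be seen in the 158 members with at least 5 CpGs that had 10 or more reads in every library. In 64 of them (40.5%) at least 80% of the CpGs had a mean over the libraries between 20% and 80%. A CpG that was low in 1 tissue and high in another can also count as intermediate here. On chromosome 2 from 48840001 to 48841000 all 8 such CpGs were intermediate by this mean. Over them heart and lung libraries were at 2.37 to 31.9% and liver libraries at 67.8 to 74.9%. In 10 windows (6.33%) low and high CpGs each made up at least 20% of the CpGs, in 14 most CpGs were low, in 6 most were high, and 64 had another mix. The median SD over CpGs of a window was 11.5 points, against 0.720 in unmethylated and 6.99 in methylated windows, which the rule on levels also favours. The other 298 members had fewer than 5 such CpGs, and in 147 there was none, so that libraries could list different CpGs of the same window.

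Differences between tissues were tested with the libraries of both tissues, over all 8637 windows with at least 3 CpGs and 50 counts in every library. A window was called at an adjusted p below 0.05 (logistic quasi-likelihood with limma's moderation, Benjamini-Hochberg over the 8637) and a difference of tissue means of at least 10 points. Over all windows 20% were called in at least 1 comparison, and 143 of 456 members (31.4%) were. Among 3031 sparser windows that met the same rule on levels the share was 45%. The rule admits windows because their level varies, so the members' share is not read as a result about CpG-dense DNA. The comparisons share their libraries of each tissue and are given side by side.

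Lung against heart was called at 77 members (16.9%), where 9.67% of all windows tested and 22.1% of the sparser windows under the same rule were called. Lung was higher at 47 and lower at 30, against 5.5% and 4.17% of all windows. The libraries of lung and heart did not overlap at 92 members (20.2%), and at 16.8% of all windows tested. The median difference over the members was 1.91 points, and over all windows 0.553 points, lung minus heart. At the called members the median absolute difference was 18.2 points, and the differences reached 54.1 and -28.6 points.

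Lung against liver was called at 67 members (14.7%), at 9.18% of all windows tested and at 21.4% of the sparser ones. Lung was higher at 28 and lower at 39, against 4.17% and 5.01% of all windows. The libraries did not overlap at 95 members (20.8%), and at 19.4% of all windows. The median difference was 0.582 points over the members and 0.0304 points over all windows, and the extremes were 48.9 and -58.2 points, lung minus liver. The number of all windows called depended on liver of horse 1, the deepest library, without which it was 482 in place of 793, while 49 of the members were called. The direction over all windows also turned, with 45.4% of the calls higher in lung at first, 58.9% without that library and 60.4% when at least 25 points were required. Among members those shares were 41.8, 42.9 and 42.9%.

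Heart against liver had the most calls, 102 members (22.4%), against 13.9% of all windows tested and 32.3% of the sparser ones. Heart was higher at 35 and lower at 67, against 5.67% and 8.22% of all windows. The libraries did not overlap at 128 members (28.1%), and at 25.5% of all windows. The median difference was -1.84 points over the members and -0.506 points over all windows, and the extremes were 54.0 and -52.8 points, heart minus liver. Without liver of horse 1 the calls were 799 in place of 1200 over all windows and 77 over the members. The share of calls higher in heart over all windows went from 40.8 to 49.6% without that library, and to 51.6% when at least 25 points were required.

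**Figure D3:**
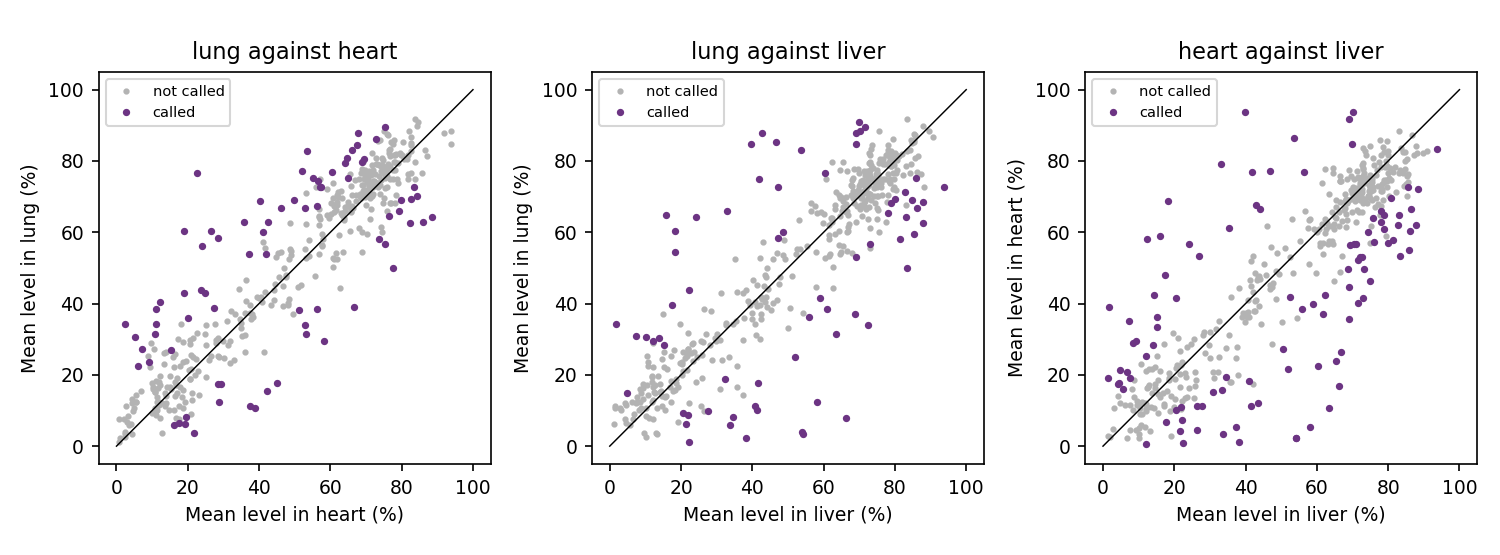
Mean methylation level (%) of the 456 member windows in 2 tissues per panel, with lung plotted over heart, lung over liver and heart over liver, called windows in purple, the others in grey and a line of equal levels. The called windows, 77, 67 and 102 in that order, lay on both sides of the line.

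Calls were spread unevenly over the kinds of member. The kinds were set by the same levels that the calls compare, so this is a description. Windows that span both thresholds have a range above 50 points by definition, and those partial in every library one below it. At least 1 comparison was called at 61 of the 152 windows around 20%, at 65 of the 239 around 70%, at 11 of the 58 that were partial in every library and at 6 of the 7 that spanned both thresholds. Of the 38 windows with a range of 50 points or more 26 were called, and of the 19 with a range under 10 points 0, which the difference required for a call fixes (3 had an unadjusted p below 0.05, and edgeR called 0). Only 38 of the 143 called members had at least 5 CpGs with 10 or more reads in every library. Calls were made at 105 of the 285 members with a shallowest library under 100 counts (36.8%) and at 38 of the 171 others (22.2%).

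The called members were sorted by which tissue differed from both others in the same direction. These groups were not counted over all windows tested, so their sizes describe the members and are not read as a trait particular to them. Liver was higher than both at 27 windows, with medians of the tissue means of 19.5% in heart, 24.9% in lung and 58.0% in liver. Heart and lung were both under 20% at 13 of these. A window with every library of 2 tissues under 20%, or at 70% or more, met the rule only through its other tissue. For such windows the rule and the call rest on the same contrast. Liver was lower than both at 16 windows, with medians of 72.8, 70.4 and 36.4% in the same order. Heart was lower than both at 27 windows (46.2, 67.4 and 70.4%) and higher than both at 12 (34.2, 16.3 and 10.8%). Lung was higher than both at 9 windows (23.7, 59.98 and 42.8%) and lower than both at 12 (76.5, 53.4 and 76.5%). All comparisons were called at 9 windows, and a window with a step in each tissue counts in 2 of these groups.

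**Figure D4:**
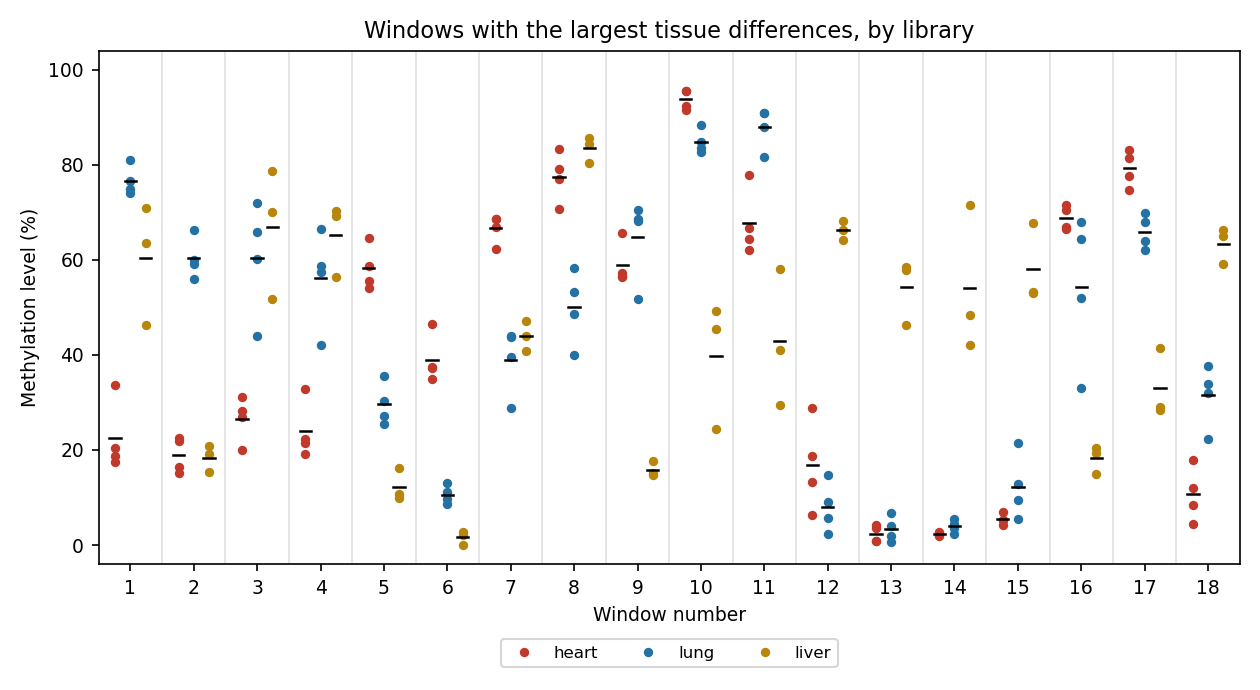
Methylation level (vertical axis, %) of the 18 member windows named for the largest tissue differences (horizontal axis, window number as used in the text), with a point per library colored by tissue and a black bar at each tissue mean. In window 13 the liver libraries sit between 46.4 and 58.5% and all heart and lung libraries at 6.67% or lower.

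Several windows were close to unmethylated in heart and lung and partly methylated in liver, the main metabolic organ. The largest such contrasts were in windows 13, 14 and 15. Window 13, on chromosome 12 from 34451001 to 34452000 with 43 listed CpGs, was at 0.906, 4.26, 0.826 and 3.57% in heart of horses 1 to 4 and at 1.97, 3.92, 6.67 and 0.680% in lung, while liver of horses 1, 2 and 4 was at 57.9, 46.4 and 58.5%. The liver libraries lay far above all others, without overlap. Heart had a mean of 2.39% ± 1.78 and lung of 3.31% ± 2.61 (SD, n = 4 each), liver had 54.3% ± 6.84 (n = 3), and the difference of heart minus liver was -51.9 points (adjusted p = 3.75e-06).

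Window 14, on chromosome 4 from 106521001 to 106522000, held 67 CpGs. Heart was at 2.08, 2.56, 2.80 and 1.91% and lung at 5.48, 4.50, 2.31 and 3.49%, all of them near 0, and liver was at 48.5, 71.6 and 42.1%. The highest liver value came from horse 2, whose library had 67 counts there. Heart minus liver was -51.7 points (adjusted p = 3.75e-06) and lung minus liver -50.1 points (adjusted p = 2.35e-05).

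Window 15, on chromosome 2 from 33149001 to 33150000, was at 4.12, 5.32, 5.33 and 6.85% in heart, 9.44, 12.8, 21.4 and 5.43% in lung and 53.3, 67.8 and 52.98% in liver. The lung libraries reached higher than those of heart, though lung and heart were not called different (adjusted p = 0.0831, difference 6.86 points). Liver stood above both, with a heart minus liver difference of -52.6 points (adjusted p = 4.72e-06).

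In window 12, on chromosome 2 from 48840001 to 48841000, the low tissues were more variable. Heart was at 6.29, 18.8, 28.8 and 13.2% and lung at 2.38, 5.73, 9.15 and 14.7%, and the liver libraries stood together at 64.2, 68.2 and 66.3%. The difference of lung minus liver, -58.2 points (adjusted p = 6.82e-06), was the widest of the members in that comparison. Heart overlapped lung, and these were not called different (adjusted p = 0.192).

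Window 18, on chromosome 27 from 40063001 to 40064000 with 65 CpGs, took a different level in each tissue. The heart libraries were at 12.1, 17.8, 4.39 and 8.45%, those of lung at 37.7, 33.96, 22.3 and 31.9% and those of liver at 64.96, 59.2 and 66.2%. All libraries kept the order heart, lung, liver with no overlap, and all comparisons were called. Lung minus heart was 20.8 points (adjusted p = 0.00369), lung minus liver -31.98 points (0.000474) and heart minus liver -52.8 points (1.47e-05).

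Windows 9, 10, 11, 16 and 17 were lower in liver. Window 10, on chromosome 3 from 33167001 to 33168000, had the widest range of all members, 71.1 points. Heart was at 92.3, 95.6, 91.6 and 95.5%, lung at 88.4, 83.6, 82.7 and 84.8% and liver at 45.4, 49.3 and 24.5%. Heart and lung were close to full methylation and still separate, at -8.87 points lung minus heart, which is under the 10 points required for a call (adjusted p = 0.00803). Heart minus liver was 54.02 points (adjusted p = 1.77e-05) and lung minus liver 45.2 points (adjusted p = 0.000193).

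Window 9, on chromosome 2 from 40980001 to 40981000, was intermediate in heart and lung and low in liver. The levels were 56.3, 56.6, 65.5 and 57.2% in heart, 70.5, 68.2, 51.8 and 68.7% in lung and 17.8, 15.2 and 14.7% in liver. Horse 3 departed from the other horses in both tissues, upwards in heart and downwards in lung. Liver stayed below all other libraries, with a lung minus liver difference of 48.9 points (adjusted p = 2.51e-05) and a heart minus liver difference of 43.05 points (adjusted p = 3.75e-06).

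In window 16, on chromosome 17 from 20965001 to 20966000, heart was narrow at 70.4, 66.98, 71.5 and 66.4% and liver at 20.4, 19.3 and 14.9%. Lung was spread between them at 64.4, 67.9, 52.04 and 33.1%, with the lowest value in horse 4, and was not called different from heart (adjusted p = 0.345). Heart minus liver was 50.6 points (adjusted p = 3.75e-06).

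Window 17, on chromosome 8 from 23433001 to 23434000, had a step in each tissue in the opposite order to window 18. Heart was at 77.6, 83.1, 81.5 and 74.7%, lung at 69.9, 63.96, 67.9 and 62% and liver at 41.5, 29.1 and 28.3%. No libraries of different tissues overlapped, and heart minus liver was 46.2 points (adjusted p = 1.99e-05). This window had 10 CpGs with 10 or more reads in every library, most of them intermediate in their mean over the libraries of all tissues.

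Window 11, on chromosome 18 from 81866001 to 81867000, was highest in lung at 90.97, 87.9, 81.7 and 90.9%. Heart was at 64.5, 77.9, 62.1 and 66.7% and liver at 57.98, 29.5 and 41.01%, with no overlap between tissues. Lung minus liver was 45.05 points (adjusted p = 0.000358), lung minus heart 20.1 points (0.00446) and heart minus liver 24.96 points (0.0228).

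Heart, a striated muscle, differed from both other tissues in the same direction at windows 1, 3, 4, 5, 6 and 7. At windows 1 and 5 lung and liver were also called different. The largest difference between lung and heart lay in window 1, on chromosome 12 from 31402001 to 31403000. Heart was at 33.7, 20.5, 17.5 and 18.6%, lung at 76.5, 81.1, 75 and 74.05% and liver at 63.6, 70.9 and 46.4%. Heart was the lowest in all libraries, with horse 1 the highest among them. Lung minus heart was 54.1 points (adjusted p = 4.27e-05), and lung was also above liver by 16.4 points (adjusted p = 0.0268).

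Windows 3 and 4 were lower in heart than in lung and liver. Window 3, on chromosome 7 from 3532001 to 3533000, was at 28.1, 31.1, 20 and 26.9% in heart, 72.03, 65.8, 60.1 and 44% in lung and 78.6, 51.8 and 70.1% in liver. Lung and liver overlapped there, and heart lay below both with a lung minus heart difference of 33.95 points (adjusted p = 0.000628). Window 4, on chromosome 6 from 76104001 to 76105000, was at 32.8, 19.2, 22.2 and 21.6% in heart, 66.5, 58.7, 57.4 and 42.2% in lung and 69.3, 70.2 and 56.4% in liver. Its lung minus heart difference was 32.2 points (adjusted p = 0.0018), and lung and liver were again not called different (adjusted p = 0.589).

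Windows 5, 6 and 7 were higher in heart. Window 5, on chromosome 7 from 1480001 to 1481000, was at 58.7, 55.5, 64.5 and 54.1% in heart, 35.6, 30.2, 25.5 and 27.1% in lung and 16.1, 9.80 and 10.8% in liver, with no overlap between any tissues. Its lung minus heart difference was -28.6 points (adjusted p = 0.000298) and its heart minus liver difference 45.96 points (adjusted p = 6.26e-06). Window 6, on chromosome 22 from 31429001 to 31430000, was at 34.9, 37.2, 46.4 and 37.4% in heart, 11.1, 9.65, 12.97 and 8.62% in lung and 2.64, 0 and 2.14% in liver.

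Liver was close to 0 in window 6, and liver of horse 2 had 0 of 90 counts methylated. Were these 90 separate reads, counting alone would allow a level of up to 3.33%. Reads counted at several CpGs make the true limit higher. Lung minus heart was -28.4 points in window 6 (adjusted p = 5.85e-05). Lung and liver did not overlap there, at 8.99 points lung minus liver (adjusted p = 0.00297), under the 10 points required for a call. All lung and liver libraries of window 6 were under 20%, so it met the rule only through heart. Window 7, on chromosome 3 from 8205001 to 8206000, was at 66.8, 68.7, 62.3 and 68.6% in heart, 43.9, 28.8, 39.5 and 43.8% in lung and 47.2, 43.9 and 40.9% in liver. Lung and liver overlapped and heart stood above both, with a lung minus heart difference of -27.6 points (adjusted p = 0.000622).

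Lung was set apart in opposite directions at windows 2 and 8. Window 2, on chromosome 8 from 30239001 to 30240000, was at 66.3, 56.01, 60 and 59.1% in lung, 22.5, 15.2, 21.95 and 16.3% in heart and 15.3, 20.9 and 19.1% in liver. Heart and liver were both low and were not called different (adjusted p = 0.781, difference 0.585 points) and lung was above both, by 41.4 points over heart (adjusted p = 4.27e-05) and 41.96 points over liver (adjusted p = 5.27e-05). Window 8, on chromosome 12 from 22996001 to 22997000, was at 39.96, 58.2, 53.3 and 48.6% in lung, 70.7, 77.02, 79.2 and 83.3% in heart and 84.4, 80.4 and 85.6% in liver. Lung was below both, with differences of -27.5 points for lung minus heart (adjusted p = 0.00162) and -33.4 points for lung minus liver (adjusted p = 0.000175).

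The member on chromosome 12 from 23012001 to 23013000, near window 8, had the same pattern and was read at over 5 times the median depth. Heart was at 76.05, 82.8, 84.4 and 85.6%, lung at 66.8, 58.6, 64.8 and 60.6% and liver at 87.9, 86.6 and 89.4%. Lung lay below all other libraries. It was chosen after its values were seen.

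Sparser windows next to called members mostly took the same direction, though few had the depth to be tested. Of 17 flanking windows tested over all comparisons and directions, 16 differed between the tissues in the direction of the member and 5 were called. Beside members higher in lung than in heart, 5 of 5 flanks were higher in lung by a median of 14.0 points. Beside members lower in heart than in liver, 2 of 3 were lower in heart, with a median of -7.48 points. A flank can serve more than 1 comparison.

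Some members stayed at the same partial level in all tissues and horses. The narrowest range among the windows partial in every library was 7.55 points, on chromosome 28 from 127001 to 128000. Heart was at 65, 63.8, 61.5 and 62.5%, lung at 68.4, 63.5, 63.5 and 64.1% and liver at 69.04, 63.6 and 68.2%, and the tissues overlapped. Its 6 CpGs with 10 or more reads in every library were split, with 33.3% of them under 20% and 66.7% above 80% in mean level, so that these CpGs lay at different levels rather than at a shared partial one.

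Others of the 6 windows with the narrowest range lay close to that window or on chromosome 13. The windows on chromosome 28 from 138001 to 139000 and from 112001 to 113000 were at 65.6% and 61.9% on average, with ranges of 9.76 and 11.6 points. In the second of them, 3 of the 5 CpGs with 10 or more reads in every library were intermediate, 1 was low and 1 was high. The window on chromosome 1 from 86582001 to 86583000 was at 26.2% on average with a range of 10.3 points, but its 1 CpG with 10 or more reads in every library was at 66.4%.

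Partial levels of single CpGs were seen on chromosome 13. The window from 23760001 to 23761000 was at 50.03, 49.9, 45.4 and 42.5% in heart, 49.3, 48.7, 53.7 and 48.1% in lung and 42.5, 44.9 and 44.6% in liver. At least 80% of its 20 CpGs with 10 or more reads in every library were intermediate. Its neighbourhood was deeply read, at least 3.86 times the median of dense windows per CpG in every library, and the window from 23757001 to 23758000, with a range of 11.6 points around 46.5%, was at 4.49 times or more.

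Another very deep member lay in the same stretch of chromosome 13, from 23761001 to 23762000. It was read at 23.9 times the median depth or more in every library and was at 49.3, 50.2, 48.4 and 48.2% in heart, 50.3, 54.002, 59.2 and 50.7% in lung and 42.99, 51.9 and 50.6% in liver. Heart and liver overlapped and lung was not called different from either (adjusted p = 0.076 and 0.112). Most of its 53 CpGs with 10 or more reads in every library were intermediate. The member with the most reads per CpG over all libraries was the first window of chromosome 31, from 1 to 1000, at 21.8 times the median depth or more in every library.

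That window differed between horses and not between tissues. Horse 1 was at 72.6, 72.2 and 69.95% in heart, lung and liver, and horse 2 at 87.7, 88.98 and 87.9%. Horse 3 was at 79.8 and 82.3% in heart and lung, and horse 4 at 80.2, 82.9 and 80.7%. Each horse kept its place in every tissue.

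Horses differed at many members, which the rule favours, since it admits windows whose libraries vary. The range of the 4 horse means over heart and lung had a median of 9.60 points and a maximum of 47.0 points, and it exceeded the absolute difference of lung and heart, with a median of 5.56 points, at 319 windows. At 63 windows it was 20 points or more, and 5 of these were called between tissues, where 31.4% of all members were. A wide spread between horses raises the error of the tissue test, so few calls there are in part fixed by the test. The range between horses was not counted over all windows tested, so these numbers describe the members only. A range of 4 values is wider than a difference of means of 4 values by its construction, so the count of 319 is a description. Within tissues the spread between horses over counting error was given as the Pearson dispersion, with its median over windows. For members it was 4.15 in heart, 4.95 in lung and 4.21 in liver. It was 1.40 to 2.98 for the other dense windows, a contrast that the rule favours, since members were admitted for varying levels and the others for steady ones. A read counted at several CpGs also raises these values.

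The window on chromosome 1 from 81070001 to 81071000, with 71 CpGs, separated the horses in the same order in every tissue. Horse 2 was lowest, at 24.02, 24.9 and 30.97% in heart, lung and liver, and horse 4 highest, at 63.2, 64.3 and 65.1%. Horse 1 was at 49.4, 51.1 and 47.4%, and horse 3 at 45.9 and 49.4% in heart and lung. The tissue means, 45.6% ± 16.2, 47.4% ± 16.4 and 47.8% ± 17.1, were nearly equal. Over the 43 CpGs with 10 or more reads in every library horse 2 was at 24.7, 26.2 and 31.3% and horse 4 at 63.2, 64.5 and 65.1%.

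The 3 other windows named for horse differences belonged to the longest run of adjacent members, 6 windows on chromosome 1 from 159230001 to 159236000. Horse 3 was far below the other horses in heart and lung, and heart of horse 1 lay between. In the window from 159234001 to 159235000 heart was at 50.04, 75.1, 26.9 and 76.2%, lung at 72.1, 74.9, 31.6 and 76.3% and liver, which horse 3 lacks here, at 70.6, 77.2 and 77.3%. In the window from 159230001 to 159231000 heart was at 36.5, 66.6, 16.8 and 65.02%, lung at 67.1, 63.5, 24.3 and 63.4% and liver at 66.7, 62.4 and 65.5%.

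Horse 1 was low there in heart and level with horses 2 and 4 in lung and liver. The remaining windows of the run, starting at 159231001, 159232001, 159233001 and 159235001, had horse 3 at 35.8 to 61.3% in heart and lung, below every other library of its tissue. None of the 6 windows was called between tissues by the moderated test or by edgeR, with 1 of 6 at an unadjusted p below 0.05. With horse as a block 0 of the 6 were called as well. Liver was without horse 3.

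**Figure D5:**
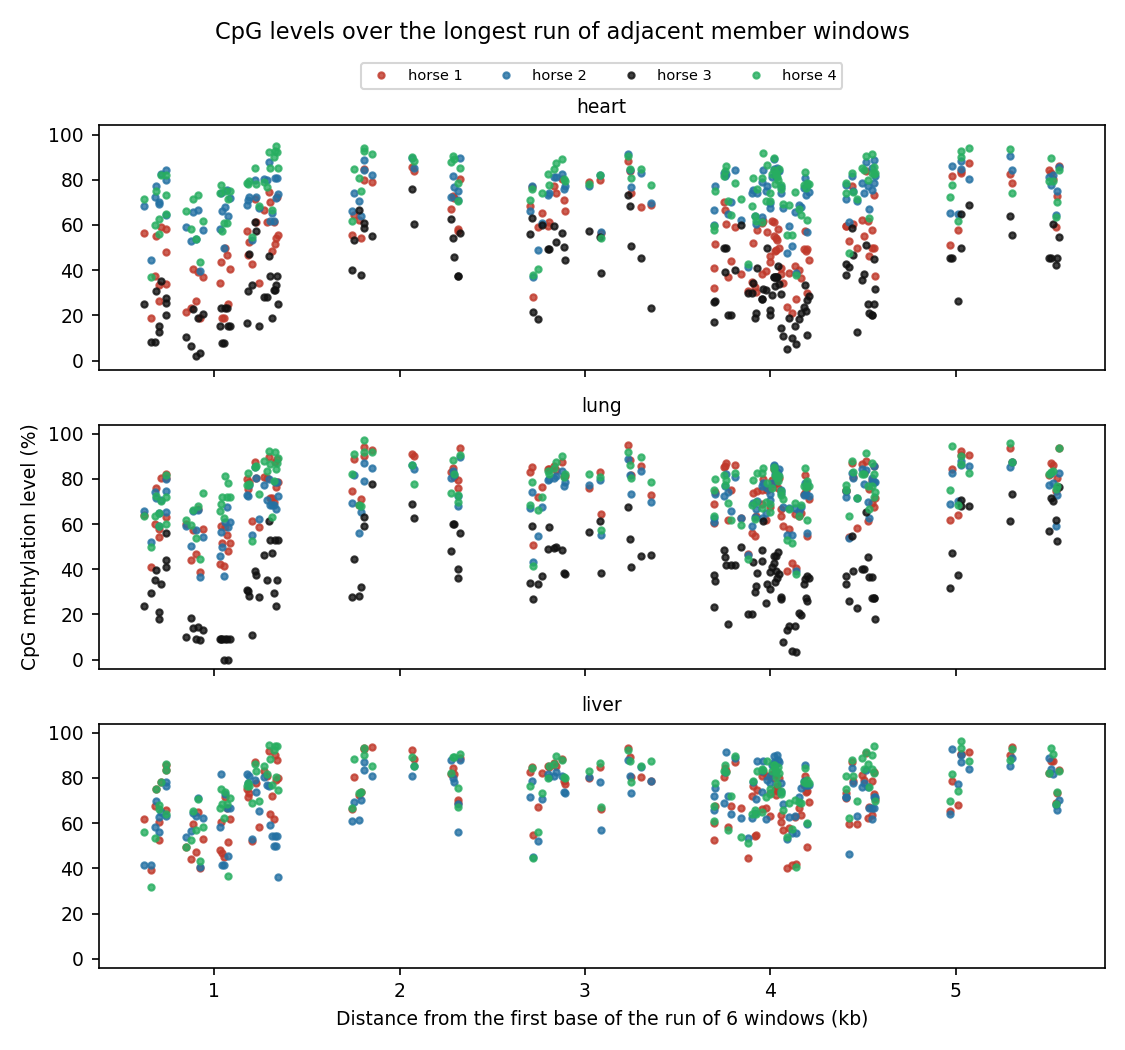
Methylation level (vertical axis, %) of 155 CpGs with 10 or more reads in every library along the run of 6 adjacent member windows (horizontal axis, kb from its first base), with a panel per tissue and a color per horse. Horse 3 (black) was lowest in heart at 153 CpGs and in lung at 154.

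The low level of horse 3 ran along the whole stretch. Over the 155 CpGs with 10 or more reads in every library the median was 33.3% in heart and 37.5% in lung of horse 3, and 73.1 to 78.0% in heart and lung of horses 2 and 4. Heart of horse 1 had a median of 56.3% and lung of horse 1 75.8%. Horse 3 was the lowest heart library at 153 CpGs and the lowest lung library at 154. Reads were fewer in horse 3 over this run too, with 2916 counts in heart and 2456 in lung in the window from 159234001, where the other heart and lung libraries had 8363 to 21774, and the part of read number in the level was not tested.

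A run of 5 adjacent members on chromosome 5 from 32582001 to 32587000 also had horse 3 lowest. In the window from 32584001 to 32585000 heart was at 54.6, 45.9, 21.6 and 54.3%, lung at 42.5, 48.96, 19.8 and 52.3% and liver at 40.7, 47.1 and 52.8%. Horse 3 stood well below the others in both tissues. In the window from 32583001 to 32584000 it was at 4.12% in heart and 5.43% in lung, against 14.97 to 29.99% in the other heart and lung libraries. The last window, from 32586001 to 32587000, had 99 CpGs, the second highest number among the members, and was at 21.7, 12.9, 9.55 and 21.3% in heart, 19.8, 13.5, 8.51 and 15.03% in lung and 14.9, 13.3 and 15.5% in liver.

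The member with the most CpGs, 103, lay on chromosome 1 from 69724001 to 69725000. Heart was at 34.6, 43.1, 38.1 and 52.2%, lung at 60.9, 46.6, 48.97 and 58.8% and liver at 57.2, 44.2 and 55.7%. The lung and liver libraries overlapped with heart of horse 4 and lay above the other heart libraries. Lung minus heart was 11.8 points (adjusted p = 0.0388) and heart minus liver -10.4 points (adjusted p = 0.00906), while lung and liver were not called different (adjusted p = 0.927). It was among the 2 called members of the 19 very deep ones, with the window on chromosome 12 from 23012001 as the other.

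Heart of horse 1 stood apart at a group of deep windows. In the adjacent windows on chromosome 13 from 25947001 to 25948000 and from 25948001 to 25949000 it was at 48.0 and 43.1%, and the other 10 libraries were at 81.8 to 90.1% and 76.6 to 89.6%. This library was the lowest by at least 15 points at 8 members, among them 6 on chromosome 13, and 5 of the 8 were read at 2 times the median depth or more. On chromosome 13 from 27931001 to 27932000 it was at 44.9% and the others at 80.7 to 90.4%. No other library stood apart by 15 points at any of the 59 members of that depth. Heart means at these windows therefore rest on this library. None of the 8 was called between tissues (4 at an unadjusted p below 0.05, and 0 by edgeR), but with horse as a block 7 were called by the moderated test and 3 by edgeR.

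Liver of horse 2 stood apart more often, at 18 members, being the lowest at 6 and the highest at 12. The median there was 63.5 counts, and it is the library with the fewest reads. The 19 very deep members had mean levels from 30.5 to 82.9%, with a median of 72.6%, and a median range of 29.5 points.

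Some members lay in clusters, and no tissue difference was called there. Clusters of dense windows of any class were not counted, so this is not read as a trait of members. With gaps of no more than 50 kb, 273 members stood alone, and 9 clusters of at least 5 members contained 66 windows (14.5%). Of these 66 none was called in any tissue comparison by the moderated test or by edgeR, though 13 had an unadjusted p below 0.05 and 1 was called with horse as a block, while 143 of the 390 others were called. Their median range was 15.4 points, against 26.8 points elsewhere, and their median level was 69.96%, against 54.1%. The largest cluster lay at the start of chromosome 28 from 20001 to 170000, with 13 members among 53 dense windows, the other 40 being methylated throughout. The next, on chromosome 1 from 67457001 to 67573000, had 12 members among 62 dense windows. Dense windows were crowded at both places, and members made up 23.8% of dense windows over all chromosomes.

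In 4 other clusters no dense window was methylated throughout. The 6 dense windows of the run on chromosome 1 from 159230001 to 159236000, the 5 on chromosome 13 from 23746001 to 23762000 and the 5 on chromosome 1 from 89932001 to 89948000 were all members. On chromosome 5 from 32579001 to 32645000, 9 of 13 dense windows were members and the other 4 were unmethylated. In the cluster on chromosome 1 from 89932001 the mean levels ran from 20.8 to 53.7%. Its window from 89946001 to 89947000 was at 33.4, 49.2, 26.3 and 31.1% in heart, 23.4, 51.5, 29.3 and 34.4% in lung and 21.98, 46.7 and 29.1% in liver, with horse 2 highest in each tissue.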

How the data were processed

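DNA methylation was measured by RRBS in 4 heart, 4 lung and 3 liver libraries of 4 horses, grouped by the tissue and horse that the labels give. The authors filtered the reads, mapped them to EquCab3.0 and called methylation from uniquely mapped reads. The submitters' processing notes name FastQC and BSMAP, with versions not given in the sources used here. Each deposited file gives the coverage of a CpG cytosine on its strand as a count of reads, and the percent of those reads that show C. They list no position under 5 reads, so libraries can list different CpGs of the same window. Replicates were separate horses.

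Methylated counts were computed from coverage and the deposited percent, rounded, and came out whole, within 0.05 points, at no less than 99.8% of each library's positions. Strands were combined, and counts were summed over windows of 1000 bp on chromosomes 1 to 31. Chromosome X was not analysed here, and a gene table of another horse assembly was not used. Windows with at least 3 CpGs and 50 counts in every library (8637) were tested by logistic regression on tissue alone. The Pearson dispersion was moderated with limma 3.58.1, kept at 1 or above, with windows pooled under 2% or over 98% left out of its prior, and entered a quasi-likelihood F test, whose p-values were adjusted after Benjamini-Hochberg. The code was tested on simulated data. Classes of dense windows were compared by exact 2-sided sign-flip permutation tests over libraries.

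The members and the rule for named windows were chosen with earlier results of these data known. Named were, for each comparison and direction, the 4 called members with the largest difference, the 6 steadiest windows partial in every library, the 4 with the largest difference between horses, the 2 with the most CpGs and the 2 with the most reads per CpG, the 3 longest runs, and those next to each threshold. Of the runs of 2 windows, the one with the most reads was named. The horse numbers of the labels pair the samples, since a number stands for 1 animal. Residuals from tissue means correlated between tissues of 1 horse at 0.0766 to 0.239, and between those of different horses at 0.0671 or less. Heart of horse 1 had the lowest values within a horse, 0.0831 with its lung and 0.0766 with its liver. Alternatives were horse as a block, all tissues in one fit, edgeR 4.0.16 with and without the block, other depth, CpG and call thresholds, an unweighted mean of CpGs with limma, and leaving out each library. Python 3.11.15, numpy 2.4.6, pandas 2.3.3, scipy 1.17.1, matplotlib 3.10.9 and R 4.3.3 were used. The read counts are not distinct molecules, so a limit computed from them is too low, and it covers counting error only.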

Additional observations from a re-analysis of the deposited data

Results flagged for a closer look

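Single libraries were compared with the others of their tissue at the named windows. In 8 of 82 groups of 4 libraries (9.76%) the gap of the outermost library to the next exceeded the 95% limit of Dixon's test, where chance alone marks about 1 in 20. Windows named for large differences between horses, and their run, are among those examined, and 4 of the 8 lie in that run, so the share is raised by the choice of windows. On chromosome 2 from 40980001 to 40981000 heart of horse 3 was at 65.5%, with the other heart libraries at 56.3 to 57.2%, and lung of horse 3 was at 51.8%, with the others at 68.2 to 70.5%. On chromosome 28 from 127001 to 128000 lung of horse 1 was at 68.4% and the others at 63.5 to 64.1%.

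Lung of horse 3 was set apart in 4 windows of the run on chromosome 1. It was at 31.6% from 159234001 to 159235000, at 24.3% from 159230001 to 159231000, at 46.0% from 159232001 to 159233000 and at 45.0% from 159233001 to 159234000, and the other lung libraries were at 63.4% or more in all of them. Adjacent windows of the same library are not independent. On chromosome 13 from 25947001 to 25948000 heart of horse 1 was at 48.0%, and the other heart libraries were at 81.8 to 88.2%.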

How the results depend on the processing

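Values are for member windows, followed by all windows tested, given first for lung and heart, then for lung and liver, then for heart and liver. At a difference of at least 25 points the calls were 20, 28 and 37 of the members and 154, 280 and 405 of all windows. At an adjusted p below 0.01 they were 48, 43 and 73, and 471, 425 and 774. With at least 100 reads in every library, where 171 members and 1853 windows were tested, they were 20, 15 and 25, and 103, 87 and 160. The share of calls higher in the tissue named first then moved among members from 61.0 to 50%, from 41.8 to 26.7% and from 34.3 to 28.0%. With CpGs of 10 or more reads in every library, which left 198 members, the calls were 35, 27 and 40, and 457, 417 and 660. With the unweighted mean of those CpGs and limma they were 28, 23 and 29, and 349, 327 and 526. By edgeR they were 65, 52 and 92, and 722, 618 and 1062.

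With horse as a block, 90, 76 and 118 members and 958, 902 and 1267 windows were called, of which 76, 63 and 99 members were among those called without it. EdgeR with the block, added after the data were seen, called 81, 67 and 105 members. Leaving out 1 library gave 63 to 73, 49 to 63 and 77 to 103 members, and 661 to 785, 482 to 736 and 799 to 1136 windows.

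The contrasts of flanking windows kept their sign in all alternatives run, and stayed past the threshold in those over libraries. Over the means of the 4 horses, added after the data were seen, the smallest p possible is 0.125. With 1 library left out they were 63.4 to 64.0 and -19.9 to -19.4 points, and those of reads per CpG 1.53 to 1.75 and -4.42 to -3.44. With windows 2 steps away the flank contrasts were 51.5 and -14.9 points. The contrast of reads per CpG with methylated windows was -0.610 with means in place of medians (exact sign-flip permutation test, adjusted p = 0.573), and the cause was not tested. All 363 refits of the 24 differences of named windows kept direction and call. With windows of 1 or 2 CpGs also tested, the numbers of members called were again 77, 67 and 102, and with all tissues in a single fit they were 77, 72 and 102.

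The number of members was 928 with 20 CpGs, 227 with 40, 171 with 100 reads, 864 with thresholds of 10 and 80%, 277 with 30 and 60%, 467 with windows shifted by 500 bp and 213 with common CpGs only. On common CpGs, also added after the data were seen, the mean level moved to 66.4% on chromosome 1 from 86582001 (1 CpG), to 53.8% on chromosome 28 from 112001 and to 10.3% on chromosome 5 from 32586001. Depth limited what could be seen, since 298 members had fewer than 5 common CpGs.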
